A study of Mus musculus with 6 samples.

Results

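The cell cycle and DNA replication genes described here were a list of 50 genes, divided by the stage at which their products are known mainly to act into 10 G1 cyclins, kinases and regulators, 14 genes of S phase and 26 genes of G2 and mitosis. A probe set was taken as a member when the annotation of the array gave it the symbol of one of these genes, older names included, and of no other gene. This gave 95 probe sets for 49 of the 50 genes, among 12393 genes with such a probe set on the array. Ccnb1, cyclin B1, had none and was not analysed here. The cells were mesenchymal cells of the urogenital sinus, the embryonic tissue from which the prostate forms, taken from male CD-1 mouse fetuses on gestation day 17, separated from epithelial cells and passaged once. E2-treated cells received 100 nM estradiol (E2) for 4 days, and control cells received the ethanol vehicle, each after 3 days in estrogen-free medium. Both groups were kept in charcoal-stripped serum with insulin and with 690 pM dihydrotestosterone, an androgen that is not converted to estrogen. Each group had 3 samples, and each sample was read on its own Affymetrix mouse expression array, where a probe set is a group of short probes for a transcript. The sources do not say whether the 3 samples came from separate cell preparations, so the spread behind the p-values is that between 3 samples and may be technical.

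In dividing cells, D-type cyclins are made in response to mitogens and join Cdk4 and Cdk6, and together they phosphorylate the retinoblastoma protein Rb1. Rb1 then releases E2F factors, which switch on cyclin E and the genes of DNA synthesis. Later, cyclins A and B with Cdk1, and the factors Foxm1 and Mybl2, drive a group of mitotic genes whose promoters often carry CCAAT boxes, bound by NF-Y, and a cell cycle genes homology region (CHR), and in many tissues estrogen is known to act on the D cyclins and on proliferation. In a culture these mRNAs follow both the share of cells in cycle and the amount per cell, and in bulk RNA fewer cells of a type and less RNA per cell cannot be told apart.

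Each array was scaled to its median, so signals are given in scaled fluorescence units on a linear scale, and differences are E2 minus control on the log2 scale. The array medians before scaling ran from 13.7 to 21.8 units in E2 cells and from 14.0 to 19.9 units in control cells. Log2 values correlated at 0.934 to 0.960 within groups and at 0.922 to 0.95 between groups. Before scaling, a control probe set for 18S ribosomal RNA gave 288 units in E2 replicate 2 and 281 units in control replicate 3. The other arrays had 22.8 to 44.7 units, so results are also given without E2 replicate 2 and control replicate 3. All 12 mesenchymal markers tested were above the filter on low signal, with summed signals of 16506 to 17282 units in E2 cells and 17123 to 19221 units in control cells. Of 10 epithelial markers, Cdh1, Epcam, Krt5, Krt15, Cldn4 and Trp63 were below the filter of 10 units in both groups. The 10 markers together, these included, summed to 140.1 to 148 units in E2 cells and 56.7 to 96.7 units in control cells. Of the 4 keratins that passed the filter, Krt8, Krt14 and Krt19 averaged under 10 units in control cells. They passed it only through their E2 means, so the direction of their differences is partly set by the filter. Krt18 was above the filter in both groups and was called higher. All 12 markers of macrophages and leukocytes had negative differences, none called by limma and 3 with an unadjusted p under 0.05. Their summed signals ran from 622 to 743 units in E2 cells and from 693 to 1129 units in control cells. The part of these markers in the results below was not tested.

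The 250 bases before the transcription start, by RefSeq on build GRCm38.p6, were held for 39 of the 50 genes, with 42 promoters in all. They were searched on both strands for the CCAAT box (CCAAT), the CHR (TTTGAA) and 4 forms of the E2F site (TTTGGCGC, TTTCCCGC, TTTCGCGC and TTTGCCGC), and overlapping matches on the 2 strands were counted separately. A CCAAT box was found in 18 of 22 G2 and mitosis promoters (81.8%), 9 of 13 S phase promoters (69.2%) and 2 of 7 G1 promoters (28.6%), against 33.8% of all 32851 promoters of the same length. A CHR was found in 8 G2 and mitosis promoters (36.4%), 1 S phase promoter (7.69%) and 0 G1 promoters, against 16% of all promoters. All 8 G2 and mitosis promoters with a CHR also had a CCAAT box, and both motifs stood together in 5.55% of all promoters. The order differed for the E2F letters, which were in 4 S phase promoters (30.8%), 1 G2 and mitosis promoter (4.55%) and 1 G1 promoter (14.3%), against 1.86% of all promoters. A match is a run of letters and not a measured binding site. The sequences below show Cdk1 for mitosis and Mcm6 for replication, which hold more matches than most of their classes. Cdk1 is the 1 G2 and mitosis promoter with E2F letters, and Mcm6 has the most E2F matches of the S phase promoters. Shown with them are Prc1 and Mcm3, the genes of those classes with the lowest p-values in the comparison. The sequences run 5′ to 3′ on the strand of the gene, with the motifs in capitals. Positions count back from -1, the base before the start.
Cdk1, chr10:69352913-69353162, minus strand: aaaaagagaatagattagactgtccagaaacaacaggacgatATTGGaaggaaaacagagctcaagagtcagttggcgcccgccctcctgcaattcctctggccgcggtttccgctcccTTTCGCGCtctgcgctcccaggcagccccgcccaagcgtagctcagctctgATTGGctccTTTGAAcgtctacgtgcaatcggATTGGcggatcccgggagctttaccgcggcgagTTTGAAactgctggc
Prc1, chr7:80294226-80294475, plus strand, the second of its 2 starts in the table: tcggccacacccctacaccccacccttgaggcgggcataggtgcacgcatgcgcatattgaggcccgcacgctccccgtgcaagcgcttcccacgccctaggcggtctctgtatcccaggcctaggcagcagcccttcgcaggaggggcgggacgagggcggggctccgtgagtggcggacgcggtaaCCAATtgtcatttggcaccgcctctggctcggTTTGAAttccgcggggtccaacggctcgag
Mcm6, chr1:128359706-128359955, minus strand: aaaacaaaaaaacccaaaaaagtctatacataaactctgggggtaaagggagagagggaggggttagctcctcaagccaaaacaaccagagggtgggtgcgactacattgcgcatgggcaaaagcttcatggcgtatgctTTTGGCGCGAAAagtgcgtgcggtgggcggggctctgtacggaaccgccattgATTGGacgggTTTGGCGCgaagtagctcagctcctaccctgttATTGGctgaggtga
Mcm3, chr1:20820313-20820562, minus strand: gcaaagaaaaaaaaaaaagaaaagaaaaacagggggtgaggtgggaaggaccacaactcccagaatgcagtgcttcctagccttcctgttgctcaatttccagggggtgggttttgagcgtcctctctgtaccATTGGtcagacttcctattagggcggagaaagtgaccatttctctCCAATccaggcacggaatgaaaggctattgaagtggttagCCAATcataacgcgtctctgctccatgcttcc
In Cdk1 the CCAAT boxes begin at -208, -80 and -48, the CHR matches at -71 and -15 and the E2F match at -131. In Prc1 a CCAAT box at -62 is followed by a CHR at -30. The window of its first start overlaps this one, with the same CCAAT box at -37 and no CHR. Both windows count among the G2 and mitosis promoters. In Mcm6 the E2F letters begin at -110, -106 and -47, the first pair overlapping on opposite strands, beside CCAAT boxes at -57 and -14. Mcm3 had CCAAT boxes at -117, -72 and -32 and neither of the other motifs in this window.

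**Figure D1:**
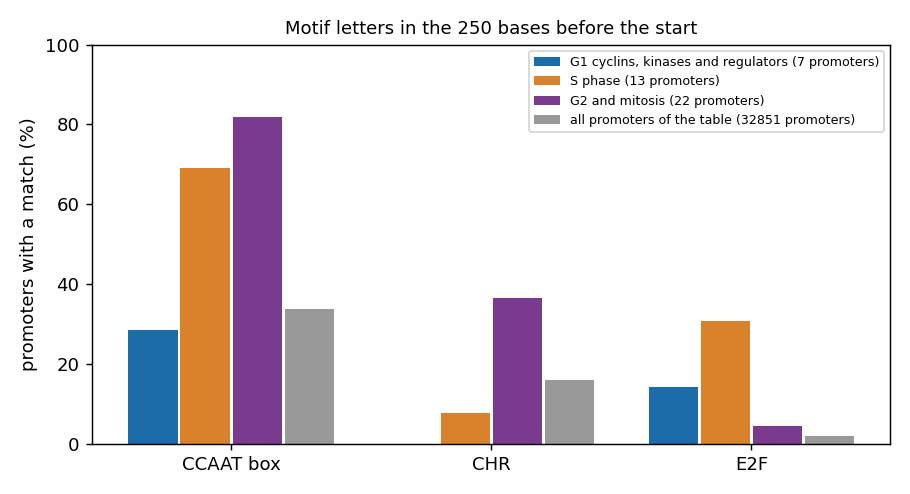
Share of promoters (%) with a CCAAT box, a CHR or an E2F match in the 250 bases before the start, as bars for the 3 classes of members and for all 32851 promoters of the RefSeq table. CCAAT boxes were in 81.8% of G2 and mitosis promoters against 33.8% of all promoters, and E2F letters in 30.8% of S phase promoters against 1.86% of all promoters.

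The comparison asked whether 4 days of 100 nM E2 went with a different level of the mRNAs for cell division. None of the member probe sets passed the test in either direction. Of the 95 probe sets, 75 of 45 genes passed the filter, a mean of at least 10 units in either group, and 0 were called higher and 0 lower at an adjusted p under 0.05 from limma, against 0.492% of all 14223 probe sets tested called higher and 0.253% called lower. The lowest adjusted p from limma was 0.088, for a probe set of Ccnd1. At an unadjusted p under 0.05 from limma there were 1 probe set higher (1.33%) and 3 lower (4.0%), against 3.44% higher and 4.55% lower over all probe sets. With a fold change of at least 1.5 and the unadjusted p, the thresholds the study stated, 0 were higher and 3 lower (4.0%), against 2.06% and 1.88% of all probe sets. The 3 E2 arrays lay above the 3 control arrays for 4 member probe sets (5.33%) and below them for 6 (8.0%), against 5.72% and 8.49% of all probe sets. By the brightest probe set of each gene, 2 genes, Aurka and Foxm1, lay above and 2 genes, Rb1 and Rrm1, lay below without overlap, against 6.01% and 8.54% of all genes. Rb1 was also among the 3 probe sets lower by each rule on the unadjusted p. It passed the filter only through its control mean, so its direction in these counts is partly set by the filter.

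The 45 genes, each by its brightest tested probe set, lay close to no difference, with a median log2 difference of 0.06 and standard errors of 0.11 to 0.50, median 0.19. For 41 genes (91.1%) the 95% confidence interval of the difference lay within 2-fold in either direction, against 79.4% of all 8257 genes tested, and the 4 exceptions were Rb1, Kif11, Foxm1 and Mybl2. Within 1.5-fold lay 28 intervals (62.2%), against 46.3% of all genes. The 28 were those of 11 of the 12 S phase genes, 4 of the 9 G1 genes and 13 of the 24 G2 and mitosis genes. Intervals were wider for members of low signal, and the shares over all genes were not matched for signal. They therefore do not compare the members with equally bright genes. The differences were positive for 28 of 45 genes (62.2%), against 43.9% of all genes, whose median difference was -0.03. By class, 2 of 9 G1 genes (22.2%), 9 of 12 S phase genes (75.0%) and 17 of 24 G2 and mitosis genes (70.8%) were positive, with medians of -0.04, 0.07 and 0.11. Without E2 replicate 2 and control replicate 3, 34 of 46 genes were positive and the G2 and mitosis median was 0.27. The share and the median over all genes are not given for this setting. Over all genes, the median deviation of log2 signal from a gene's mean was -0.11 in E2 replicate 2 and 0.05 in control replicate 3. The sign of a difference was the same under every alternative setting for 21 of the 45 genes.

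**Figure D2:**
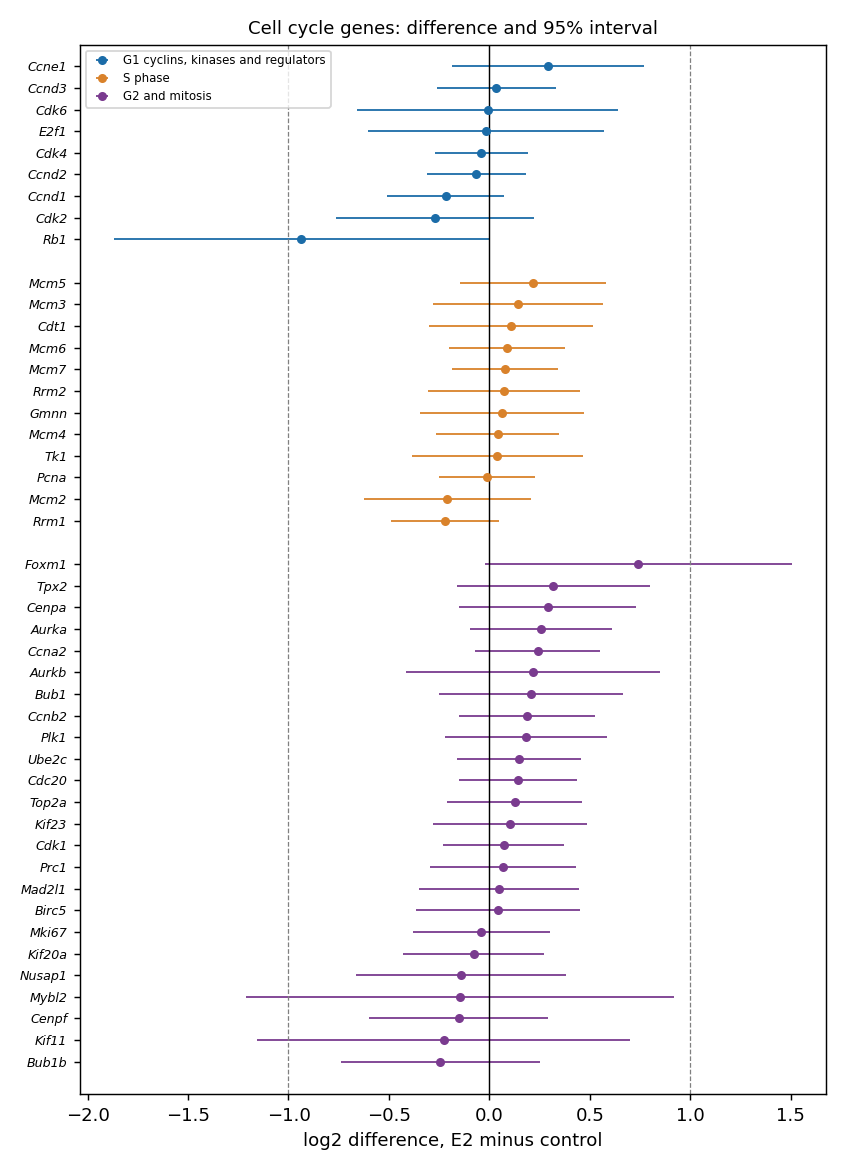
Log2 difference, E2 minus control, of each of the 45 member genes tested, with its 95% confidence interval from limma, grouped by class and ordered by size, and with dashed lines at 2-fold. The points lie between -0.94 (Rb1) and 0.74 (Foxm1), and 41 of the 45 intervals lie between the dashed lines.

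Of the D-type cyclins, which start G1 progression, Ccnd1 was lower in E2 on 1 of its 3 probe sets before adjustment. Ccnd2 and Ccnd3 differed little on their brightest probe sets. Ccnd1, cyclin D1, had 247, 185 and 229 units in E2 replicates 1 to 3, against 269, 243 and 251 units in control replicates 1 to 3, on its brightest probe set. Only E2 replicate 1 reached the control range there. The log2 difference was -0.22 (95% confidence interval -0.51 to 0.07) with an adjusted p of 0.741 from limma. On probe set 1417420_at, Ccnd1 had 71.5, 70.8 and 79.3 units in E2 cells, against 107, 126 and 109 units in control cells. Every E2 array was below every control array, with a log2 difference of -0.62 (standard error 0.15, 95% confidence interval -0.94 to -0.30), an unadjusted p of 0.00091 and an adjusted p of 0.088 from limma. That adjusted p ranged from 0.0377, with array weights, to 1 over the alternatives, and the difference from -0.68 to -0.53. The third probe set had 96.1, 40.6 and 94.7 units in E2 cells, against 104, 86.7 and 94.6 units in control cells, where E2 replicate 2 alone lay far below the rest. All 3 Ccnd1 differences were therefore negative, and 1 of the 3 separated the groups.

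Ccnd2, cyclin D2, had 875, 750.3 and 890.4 units in E2 cells, against 789.9, 897 and 945 units in control cells. The groups overlapped, with a log2 difference of -0.06 (95% confidence interval -0.31 to 0.18). Its 7 tested probe sets had differences of -0.16 to 0.62. The highest of these, 1416123_at, had 17.9, 17.9 and 16.1 units in E2 cells and 13.8, 13.1 and 7.83 units in control cells. Every E2 array was above every control array on this dim probe set (adjusted p = 0.719 from limma). Ccnd3, cyclin D3, had 239.9, 182 and 198 units in E2 cells and 213, 203 and 187 units in control cells, a log2 difference of 0.03 (95% confidence interval -0.26 to 0.33). Its lowest and its highest array were both E2 arrays.

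The kinases that D-type cyclins activate differed between the groups by less than the spread between arrays. Cdk4 had 646, 555 and 627 units in E2 cells and 635, 620.3 and 620.4 units in control cells. Its groups overlapped and the log2 difference was -0.04 (95% confidence interval -0.27 to 0.19) on its brightest probe set. The other 2 Cdk4 probe sets had differences of -0.24 (95% confidence interval -0.65 to 0.17) and -0.07 (95% confidence interval -0.33 to 0.18), so the first of them also allowed a decrease of more than 1.5-fold. Cdk6 was dimmer, with 21.0, 16.6 and 19.9 units in E2 cells and 13.6, 21.0 and 24.8 units in control cells, and its interval around -0.01 ran from -0.66 to 0.64. Cdk2, the partner of cyclins E and A, had a log2 difference of -0.27 (95% confidence interval -0.76 to 0.22).

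Cyclin E1, E2f1 and Rb1 act at the entry to S phase, and their probe sets were of low signal. Ccne1, cyclin E1, had 34.9, 53.5 and 36.9 units in E2 cells and 39.0, 28.5 and 33.9 units in control cells, a log2 difference of 0.29 (95% confidence interval -0.19 to 0.77). E2 replicate 2 was the highest array, and the other E2 arrays lay within the control range. E2f1, the E2F factor that opens S phase, had 22.9, 49.5 and 30.1 units in E2 cells and 40.1, 31.8 and 27.8 units in control cells, a log2 difference of -0.02 (95% confidence interval -0.61 to 0.57). E2 replicate 2 was again the highest and E2 replicate 1 the lowest. On a second E2f1 probe set, singled out after its values were seen, the log2 difference of 1.33 (standard error 0.70, adjusted p = 0.682 from limma) came with 1.92 units in control replicate 3, where the other 5 arrays had 21.4 to 30.8 units.

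Rb1, the retinoblastoma protein that holds E2F factors back, had 7.66, 6.88 and 9.36 units in E2 cells, against 11.2, 15.3 and 20.1 units in control cells. All E2 arrays were below all control arrays, with a log2 difference of -0.94 (standard error 0.44), an unadjusted p of 0.0497 and an adjusted p of 0.625 from limma. Its E2 mean of 7.96 units lay under the filter of 10 units, so Rb1 entered the test only through its control mean of 15.5 units. Ccne2, cyclin E2, was below 10 units on average in both groups, with 7.58, 10.4 and 5.89 units in E2 cells and 0.559, 5.65 and 8.36 units in control cells, and was not tested.

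The S phase genes showed the narrowest spread of the 3 classes, with log2 differences of -0.22 for Rrm1 to 0.22 for Mcm5. Pcna, the clamp that holds the DNA polymerase on its template, had 576, 591 and 577 units in E2 cells and 549.6, 559 and 654 units in control cells. The 3 E2 values lay within the control range, and the log2 difference was -0.01 (95% confidence interval -0.25 to 0.23).

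The 6 Mcm2 to Mcm7 proteins form the ring that unwinds DNA at replication forks. Mcm2 had 31.0, 39.8 and 42.1 units in E2 cells and 42.1, 44.0 and 43.2 units in control cells, a log2 difference of -0.21 (95% confidence interval -0.62 to 0.21). E2 replicate 3 was nearly equal to the lowest control array, and the other E2 arrays were below it. Mcm5 had 75.3, 71.5 and 59.9 units in E2 cells and 65.8, 58.4 and 53.3 units in control cells, a log2 difference of 0.22 (95% confidence interval -0.15 to 0.58). Here 2 of the 3 E2 arrays were above every control array, and E2 replicate 3 was within the control range. Mcm6, whose promoter letters are shown above, had 187, 151 and 179.9 units in E2 cells and 164, 162 and 159 units in control cells, a log2 difference of 0.09 (95% confidence interval -0.20 to 0.37). Its control arrays lay between the E2 arrays. Mcm4 had a log2 difference of 0.04, and the 4 Mcm7 probe sets had differences of 0.08 to 0.32.

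Mcm3 gave opposite pictures by probe set. Its brightest, 1426652_at, had 38.6, 42.8 and 36.2 units in E2 cells and 35.2, 40.9 and 31.0 units in control cells, a log2 difference of 0.14 (95% confidence interval -0.28 to 0.57). The dimmest of the 4, 1449705_x_at, had 14.0, 15.3 and 13 units in E2 cells, against 33.0, 24.9 and 27.0 units in control cells. Every E2 array was below every control array there, with a log2 difference of -1.0 (standard error 0.27), an unadjusted p of 0.00222 and an adjusted p of 0.156 from limma. The other Mcm3 probe sets had differences of -0.04 and -0.28 with overlapping groups. The ending _x_at marks, by the naming of these arrays, a probe set with probes that can also match other transcripts.

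Cdt1 loads the Mcm ring onto origins, and Gmnn, geminin, blocks it after S phase has begun. Cdt1 had 59.0, 62.6 and 64.7 units in E2 cells and 45.5, 57.0 and 73.7 units in control cells, a log2 difference of 0.11 (95% confidence interval -0.30 to 0.52). The E2 arrays lay within the control range. Gmnn had a log2 difference of 0.06. Cdc6, which acts with Cdt1, had 8.58, 14.7 and 6.59 units in E2 cells and 9.78, 10.3 and 9.79 units in control cells, and was not tested.

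Ribonucleotide reductase, made of the subunits Rrm1 and Rrm2, supplies deoxynucleotides. Rrm1 had 174, 171 and 186 units in E2 cells, against 213, 191 and 213 units in control cells. All E2 arrays were below all control arrays, with a log2 difference of -0.22 (standard error 0.13, 95% confidence interval -0.49 to 0.05) and an adjusted p of 0.715 from limma. Its second probe set had a difference of -0.16 with overlapping groups. The 3 Rrm2 probe sets had differences of 0.07, -0.25 and 0.12, the first of them the brightest. On the second, 1434437_x_at, Rrm2 had 116, 96.0 and 118 units in E2 cells, against 129, 121 and 141 units in control cells, with every E2 array below every control array (adjusted p = 0.723 from limma). Tk1, thymidine kinase, had a difference of 0.04 (95% confidence interval -0.39 to 0.46). Tyms, thymidylate synthase, was below 10 units on all 3 of its probe sets and was not tested.

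Among the genes of G2 and mitosis, the markers most used for proliferation differed little. Mki67, the antigen Ki-67 of cycling cells, had 89.7, 103 and 106 units in E2 cells and 86.4, 117 and 105 units in control cells. The E2 arrays lay within the control range, and the log2 difference was -0.04 (95% confidence interval -0.38 to 0.30). Top2a, the topoisomerase that untangles sister chromatids, had a difference of 0.13 (95% confidence interval -0.21 to 0.46).

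The mitotic cyclins and their kinase had small positive differences. Ccna2, cyclin A2, had 196, 145 and 177 units in E2 cells and 139.7, 156 and 140.3 units in control cells, a log2 difference of 0.24 (standard error 0.15, 95% confidence interval -0.07 to 0.55) with an adjusted p of 0.727 from limma. E2 replicates 1 and 3 were above every control array, and E2 replicate 2 was within the control range. Ccnb2, cyclin B2, had 99.3, 79.8 and 108 units in E2 cells and 83.7, 86.5 and 80.2 units in control cells, a log2 difference of 0.19 (95% confidence interval -0.15 to 0.53). E2 replicates 1 and 3 were again above every control array, and E2 replicate 2 was the lowest of the 6 arrays. Cdk1, the kinase of mitotic entry, had 225, 182 and 188 units in E2 cells and 182, 172 and 214 units in control cells, a log2 difference of 0.07 (95% confidence interval -0.23 to 0.37), with overlapping groups.

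The transcription factors of the G2 and mitosis programme gave weak signals. Foxm1, a forkhead factor, had 20.5, 14.1 and 27.6 units in E2 cells and 9.24, 14.0 and 13.3 units in control cells. The groups did not overlap, though E2 replicate 2 and control replicate 2 were nearly equal. The log2 difference of 0.74 (standard error 0.36, 95% confidence interval -0.02 to 1.5) had an unadjusted p of 0.0565 and an adjusted p of 0.638 from limma. It rests on 1 probe set, 1417748_x_at, whose ending marks probes that can match other transcripts. The 3 other Foxm1 probe sets averaged 8.39, 6.85 and 1.02 units in E2 cells and 7.99, 6.35 and 2.17 units in control cells, and were not tested. Mybl2, also called B-Myb, had 16.5, 5.35 and 18.8 units in E2 cells and 9.97, 18.1 and 12.4 units in control cells, a log2 difference of -0.15 (95% confidence interval -1.21 to 0.92). E2 replicate 2 was its lowest array.

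Aurka, Aurora A, and its activator Tpx2 build the mitotic spindle. Aurka had 61.0, 58.4 and 61.6 units in E2 cells, against 46.4, 52.1 and 53.2 units in control cells. Its E2 arrays were all above its control arrays, with a log2 difference of 0.26 (standard error 0.16, 95% confidence interval -0.10 to 0.61) and an adjusted p of 0.751 from limma. Tpx2 had 96.8, 50.8 and 82.1 units in E2 cells and 50, 66.2 and 63.0 units in control cells, a log2 difference of 0.32 (standard error 0.22, 95% confidence interval -0.16 to 0.80). Again E2 replicates 1 and 3 were highest, and E2 replicate 2 was within the control range.

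Prc1, which bundles the microtubules of the central spindle, was the 1 member with an unadjusted p under 0.05 in the higher direction. On 1423774_a_at it had 44.9, 40.0 and 38.6 units in E2 cells, against 35.8, 27.1 and 24.7 units in control cells. The E2 arrays were all above the control arrays, with a log2 difference of 0.51 (standard error 0.21, 95% confidence interval 0.06 to 0.97), an unadjusted p of 0.0296 and an adjusted p of 0.57 from limma. The brighter Prc1 probe set had 116, 84.4 and 110.3 units in E2 cells and 111, 99.9 and 84.3 units in control cells, a log2 difference of 0.07 with overlapping groups.

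Of the other mitotic genes, Cenpa, the centromeric histone, had a log2 difference of 0.29 and Cenpf, an outer kinetochore protein, of -0.15. The spindle checkpoint genes Bub1, Mad2l1 and Bub1b had differences of 0.21, 0.05 and -0.24, on both sides of 0. Plk1, the polo kinase, and the anaphase genes Cdc20 and Ube2c had differences of 0.18, 0.14 and 0.15. Survivin, Birc5, had a difference of 0.04, the kinesins Kif23 and Kif20a of 0.10 and -0.08, and Nusap1, a spindle protein, of -0.14. None of these had an interval that excluded 0. Cenpe, a kinetochore motor, had 4.07, 1.11 and 6.42 units in E2 cells and 6.90, 4.38 and 2.07 units in control cells, and was not tested.

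Several tested probe sets were present for 17 member genes, and for 8 of them the differences had both signs. The span of a gene's differences had a median of 0.37 and was over 0.5 for Ccnd2, E2f1, Mcm3, Aurkb and Kif11. Aurkb and Kif11 were singled out after their values were seen. Aurkb, Aurora B, had 18.4, 27.7 and 16.9 units in E2 cells and 16.3, 20.5 and 16.5 units in control cells on its brighter probe set, 1424128_x_at, a log2 difference of 0.22. On 1451246_s_at it had 8.35, 10.7 and 10.9 units in E2 cells, against 15.1, 18.1 and 15.6 units in control cells, a log2 difference of -0.71 (standard error 0.37, adjusted p = 0.678 from limma). The same gene was thus above 0 on 1 probe set and below 0, with no overlap of the arrays, on the other. The endings of both names mark probes that can match further transcripts. Such endings are also on the brightest probe sets of Cdk4 (1422441_x_at), Mcm7 (1438320_s_at), Foxm1 (1417748_x_at) and Prc1 (1423775_s_at), and on Rrm2 1434437_x_at. Kif11, the kinesin that pushes the spindle poles apart, had differences of -0.23, 0.70 and -0.30 on 3 probe sets of low signal.

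**Figure D3:**
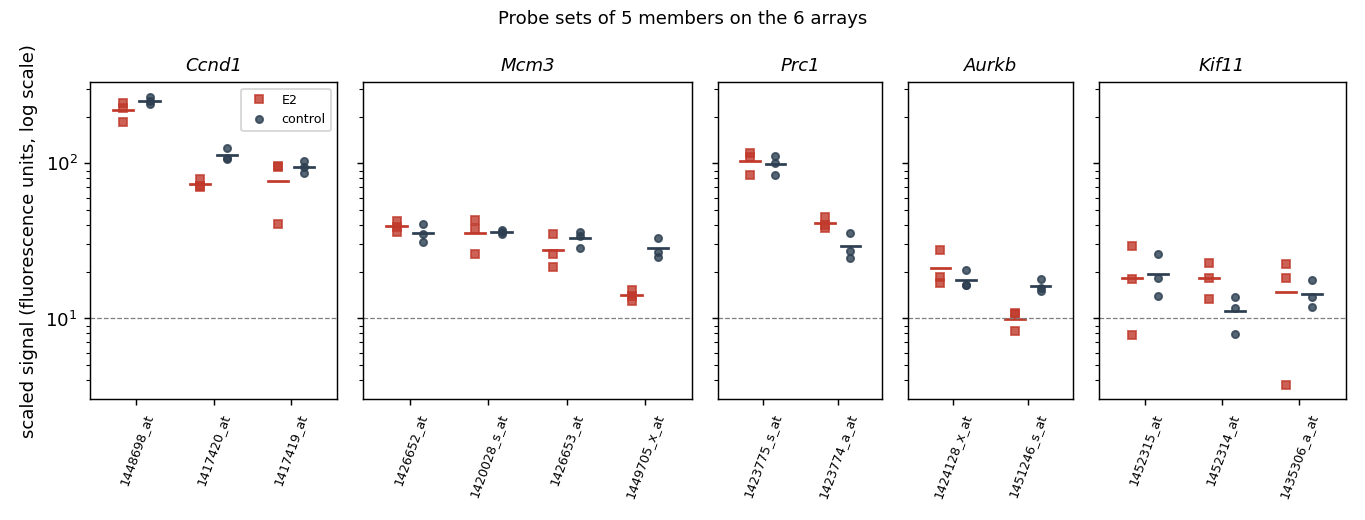
Scaled signal (fluorescence units, log axis) of every tested probe set of Ccnd1, Mcm3, Prc1, Aurkb and Kif11, with squares for the 3 E2 arrays, circles for the 3 control arrays, short lines for the group means and a dashed line at 10 units. The groups are apart on Ccnd1 1417420_at, Mcm3 1449705_x_at, Prc1 1423774_a_at and Aurkb 1451246_s_at, and overlap on the other probe sets of the same genes.

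The G2 and mitosis genes differed together between single arrays. Over the 24 genes, the median deviation of log2 signal from a gene's mean of 6 arrays was 0.14 in E2 replicate 1, -0.16 in E2 replicate 2 and 0.16 in E2 replicate 3, against -0.13, -0.05 and 0.03 in control replicates 1 to 3. E2 replicates 1 and 3 each held the highest value of 8 of the 24 genes, and E2 replicate 2 and control replicate 1 each held the lowest value of 8. So the E2 arrays spanned the control arrays, with 2 above all of them and 1 below. The class median of 0.11 was 0.22 without E2 replicate 2 and 0.04 without E2 replicate 1. Over all 8257 genes, E2 replicates 1 and 3 held the highest value of 1599 and 1439 genes, and control replicate 1 the lowest value of 1316. The median deviations of these arrays over all genes were 0.04, 0.04 and 0.01. E2 replicate 2 was also low over all genes, with a median deviation of -0.11 and the lowest value of 2895 of 8257 genes, a share near that in the class. Control replicate 3, the other array with a high 18S signal, had a median deviation of 0.05 over all genes and the highest value of 1836 of them. Before scaling, E2 replicate 2 and control replicate 3 had the 2 lowest medians of the 6 arrays, 13.7 and 14.0 units. The part of the 18S signal in these deviations was not tested.

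In S phase genes the medians were 0.05, -0.03 and 0.07 in E2 replicates 1 to 3 and -0.05, -0.03 and 0.11 in control replicates 1 to 3. In G1 genes they were 0.03, -0.19 and -0.01 in E2 cells and 0.04, 0.04 and 0.09 in control cells, so E2 replicate 2 was the lowest array here too. The ratio of the highest to the lowest array had a median of 1.42 over the 45 genes, by class 1.63 for G1, 1.39 for S phase and 1.45 for G2 and mitosis, against 1.59 over all genes. After the group means were removed, pairs of G2 and mitosis genes had a median correlation of 0.26 over the 6 arrays, with 66.3% of 276 pairs positive. The median was 0.08 for pairs of S phase genes and -0.02 for pairs of G1 genes, and over all pairs of genes tested it was 0.07, with 54.5% positive. These correlations rest on 6 arrays and share the scaling of each array.

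**Figure D4:**
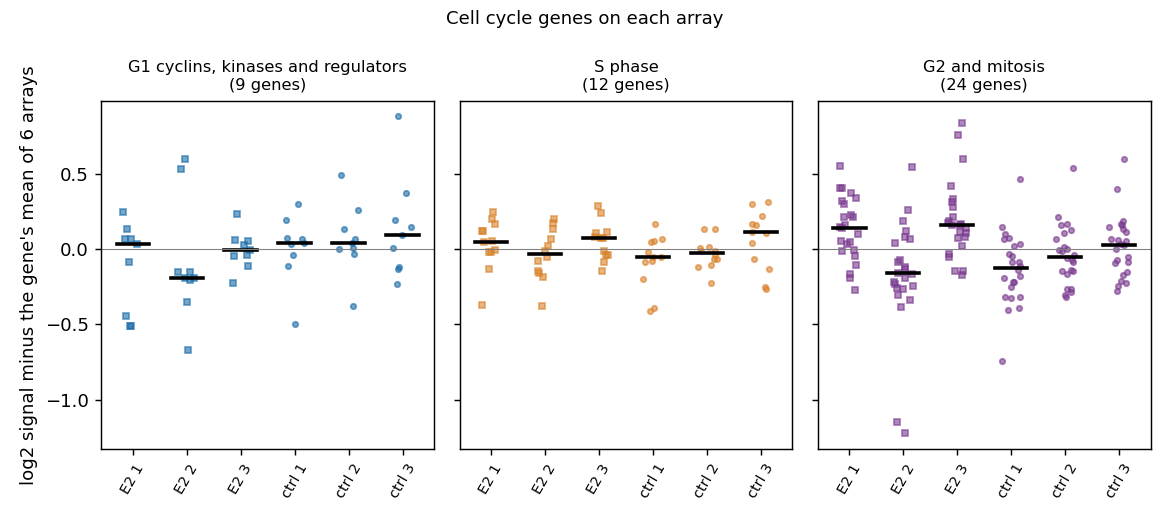
Log2 signal of each member gene on each of the 6 arrays, minus the gene's mean over the arrays, in 1 panel per class, with squares for E2, circles for control (ctrl) and black lines for the median over genes. In the G2 and mitosis panel the medians of E2 replicates 1 and 3 lie at 0.14 and 0.16, above the 3 control medians, and that of E2 replicate 2 at -0.16, below them.

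Other genes of the same pathways were read in the same way. The counts below stand against 0.492% of all probe sets tested called higher and 0.253% called lower. Lists of this size can thus hold 0 calls without differing from all probe sets. At an unadjusted p under 0.05 from limma, 3.44% of all probe sets were higher and 4.55% lower. Positive differences were found for 43.9% of all genes. Of 19 further G1 and S regulators, 16 were tested and 0 called in either direction, with a median difference of 0.06. Myc, a mitogen-induced factor, had 65.6, 39.5 and 60.8 units in E2 cells and 39.8, 35.3 and 36.6 units in control cells, a log2 difference of 0.54 with an unadjusted p of 0.0237 and an adjusted p of 0.525 from limma. E2 replicates 1 and 3 were above the controls and E2 replicate 2 was within their range. The next lowest p-values were those of E2f3, E2f8 and Skp2, the F-box protein that marks the inhibitor p27 for degradation, with differences of -0.59, 0.70 and 0.48. E2f8 averaged 6.37 units in control cells and entered the test only through its E2 mean. Of 38 further replication genes, 33 were tested and 0 called, 22 were positive and the median was 0.07. Dut, which keeps uracil out of DNA, had 55.0, 48.1 and 64.3 units in E2 cells, against 44.9, 37.3 and 34.9 units in control cells, with no overlap, a log2 difference of 0.51 and an adjusted p of 0.457 from limma. Rpa3, a subunit of the protein that coats single-stranded DNA, had a difference of 0.44 (adjusted p = 0.577 from limma), and Slbp and Pold2 had differences of 0.28 and 0.33. Of 44 further genes of G2 and mitosis, 39 were tested and 0 called, and 0 had an unadjusted p under 0.05 from limma. Here 24 were positive, the median was 0.06, and the lowest p-values were those of Lmnb1, Ncaph, Ckap5 and Sgo1, with differences of 0.40, 0.43, 0.30 and 0.68.

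The inhibitors of the cyclin-dependent kinases held the 1 gene of these lists that passed the test. Cdkn1c, which encodes p57, had 64.8, 55.6 and 66.9 units in E2 cells, against 134, 167 and 143 units in control cells. All E2 arrays were below all control arrays, a log2 difference of -1.24 (standard error 0.15) with an adjusted p of 0.000878 from limma, and the call was lost with the values as deposited (0.245), without the variance trend (0.0739) and without moderation (0.253). Of the 7 inhibitors tested, 6 were not called. Among them, Cdkn2b, which encodes p15, had a difference of -0.62, with all E2 arrays below all control arrays. Its unadjusted p was 0.00337 and its adjusted p 0.195 from limma. Cdkn2a had a difference of -0.28, and Cdkn1a, which encodes p21, a difference of 0.08.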

How the data were processed

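The 6 Affymetrix mouse arrays of the 100 nM experiment were used, 3 of E2 cells and 3 of control cells, grouped by their labels. The authors deposited intensity values on a linear scale, which they had derived from the scanned images in GeneChip Operating Software and Expression Console. For the algorithm, the background correction and any scaling of these values, the settings are not given in the sources. The array medians differed by up to 1.59 times, and every array was therefore scaled to its own median. This centering sets the typical probe set to no difference, so a change of all mRNAs together would not be seen.

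Of 22690 probe sets, 64 control probe sets were left out and 14223 that averaged 10 units or more, as deposited, in either group were fitted on the log2 scale in R 4.3.3 with limma 3.58.1 (lmFit, and eBayes with a variance trend). Tests of E2 minus control were two-sided, and p-values were adjusted over all probe sets fitted by the Benjamini-Hochberg method, with calls at an adjusted p under 0.05. Errors are standard errors of the fit, with n = 3 each. Each gene is represented by its brightest tested probe set, by mean log2 signal. Symbols came from the platform annotation, updated by gene identifier. It gave 20393 probe sets 1 symbol, 691 several and left 1555 unlisted, and 2 probe sets that name a member together with other genes were not used. The arrays name no genome build, so the only coordinates are those of the RefSeq promoters. Precision is limited by the number of arrays.

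The members, their 3 classes and the other lists were chosen with earlier results of these data known. Values on every array are given for members with an unadjusted p under 0.05 on any tested probe set, for the 4 of each class with the largest difference among those averaging 50 units or more in a group, and for a set of genes named by their role. Pathway lists name their 4 lowest p-values at most, beside any gene past the threshold. The fit was tested on simulated data. The alternatives changed the scaling (quantile normalization, or values as deposited), the low signals (a floor of 10 units, 16 units added before the log2, no filter, or a filter at 100 units) and the model (no variance trend, no moderation, array weights, or a block for the replicate number). Single arrays were also left out, as were E2 replicate 2 and control replicate 3 together. The count of genes with a positive difference under these alternatives was added after the data were seen. Figures were drawn with matplotlib 3.10.9.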

Additional observations from a re-analysis of the deposited data

How the results depend on the processing

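No member gene, by its brightest probe set, was called under any of the 17 alternatives (0 of 45 genes), and 24 of the 45 differences changed sign under at least 1 of them. Member probe sets called lower numbered 0 in the fit as reported and 1 with array weights, Ccnd1 1417420_at with an adjusted p of 0.0377 from limma. At 1.5-fold and the unadjusted p, the count of member probe sets higher in E2 was 0 as reported. It was 1 with the values as deposited, 2 with a floor of 10 units, 3 without the variance trend, 1 with array weights and 2 without E2 replicate 2 and control replicate 3 together, and 0 to 2 with single arrays left out. The count lower in E2 was 3 as reported. It was 4 with a floor of 10 units, without the variance trend or without moderation. It was 2 without the filter, with array weights or with a block for the replicate number. It was also 2 without E2 replicate 2 and control replicate 3 together. It was 1 with the values as deposited, 0 with log2(value + 16) and 1 with the filter at 100 units. With single arrays left out it was 1 to 3, the lowest without control replicate 2. As reported, 2.06% of all probe sets were higher and 1.88% lower by this rule. These shares were not counted under the alternatives, so the counts describe the members alone. With single arrays left out, the G1 median of -0.04 ran from -0.14, without control replicate 1, to 0.013, without E2 replicate 2, and over the other alternatives it was at most 0.02, with the values as deposited. The G2 and mitosis median of 0.11 was 0.27 without E2 replicate 2 and control replicate 3, and 0.04 to 0.22 with single arrays left out. Positive differences were found for 12 of 18 genes with the filter at 100 units, which tests fewer genes, and for 24 to 32 genes with single arrays left out. The medians and the shares of positive differences over all genes are not given for these settings. The cause of the other shifts was not tested.

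Over all probe sets, 70 were called higher and 36 lower as reported. The counts were 39 higher and 7 lower with the values as deposited, 15 and 1 without the variance trend, 3 and 0 without moderation, and 112 and 70 with array weights. They were 41 and 34 with the filter at 100 units, and 37 to 75 higher and 11 to 31 lower with single arrays left out.

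Replicate numbers are shared between the groups in the labels. The deviations of arrays with the same number correlated at 0.01, -0.05 and -0.06, so the numbers are not taken to pair the samples. With the replicate number as a block, 0 member probe sets were called, 1 was higher at 1.5-fold and the unadjusted p, and 61 of all probe sets were called higher and 27 lower. With 3 arrays a group, intervals were wide for members of low signal, such as Rb1, Foxm1, Mybl2 and Kif11.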
